A study of Capra hircus with 10 samples.

Results

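Of the 1327 circRNAs with deposited counts in goat intramuscular preadipocytes and adipocytes, 23 carried a predicted site for the 5p arm of a let-7 miRNA. The authors predicted pairs of miRNAs and circRNAs and deposited them as names. Every circRNA paired there with a goat miRNA whose name begins with chi-let-7 and ends in 5p was taken. This rule used no expression value, but it was chosen with earlier results of these data known. The data were 5 libraries of intramuscular preadipocytes (IMPA, day 0) and 5 libraries of intramuscular adipocytes (IMA, day 3 of adipogenic differentiation, with oleic acid added at 50 µmol/L). All libraries were made from total RNA depleted of ribosomal RNA, from cells of wild-type Jianzhou goats that were 7 days old. The cells came from 3 goats, and the sources used here do not tie a library to a goat, so at least some libraries of a group share an animal and the p-values describe the spread between libraries. A circRNA was counted by its junction reads, which cross the back-splice that closes the circle. Depth was 11421 to 15553 junction reads per IMPA library and 9622 to 12499 per IMA library, and 19 to 22 of the 23 circRNAs were detected in a library. Per the study's mapping summary, a smaller share of clean reads mapped uniquely in every IMA library than in any IMPA library, so mapping and group cannot be told apart. The smallest count above 0 was 2, so a 0 may stand for a circRNA that was not called in that library.

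The let-7 family is one of the first discovered groups of animal miRNAs, and its members share a seed, the stretch at the 5′ end of the mature strand that pairs with a target. Mature let-7 accumulates as cells differentiate, the RNA binding protein LIN28 blocks its maturation, and its well known targets include HMGA2 and components of insulin and IGF signalling such as IGF1R. A circRNA has no free ends and is stable, and one that holds sites for a miRNA can in principle bind it in place of a messenger RNA. The pairs described here are predictions from sequence, made by the authors with miRanda and TargetFinder, and let-7 itself was not measured in these libraries.

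All 8 let-7 5p miRNAs of the list (chi-let-7a-5p, chi-let-7b-5p, chi-let-7c-5p, chi-let-7d-5p, chi-let-7e-5p, chi-let-7f-5p, chi-let-7g-5p and chi-let-7i-5p) were paired with the same circRNAs. Each had 27 pairs, 23 with a whole spliced sequence and 4 with the short sequence across the back-splice, which the authors scanned as an entry of its own. The list thus held 216 let-7 5p pairs of 15242 pairs in all, and a single circRNA accounted for 8 or 16 of them. The set was not particular to the name let-7, since miR-98-5p, which belongs to the same family, was paired with the same 23 circRNAs. The let-7 3p arms, which have other sequences, were paired with 64 circRNAs, of which 1 was also in the 5p set, through let-7g-3p. The pairs of 1 circRNA with the 8 miRNAs are therefore not independent of each other.

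The 23 circRNAs came from 20 host genes on 12 chromosomes, and the authors' annotation derived all of them from exons. Ubiquitin ligases were hosts of 4: MARCH7 (circ_0001412), RNF4 (circ_0003134), RNF111 (circ_0005481) and ITCH (circ_0007093), while KLHL5 (circ_0003371) encodes a protein with Kelch repeats. Chromatin and DNA maintenance genes were hosts of 8: EHMT1, a histone H3 lysine methyltransferase, with 4 circRNAs (circ_0005878, circ_0005880, circ_0005884 and circ_0005888), ATAD2B (circ_0006317), SMCHD1, a chromosome silencing factor (circ_0010536), SMC5 (circ_0004407) and REV3L, the catalytic subunit of a translesion DNA polymerase (circ_0004832). Genes of the actin cytoskeleton were CAPZB, an actin capping subunit (circ_0001128), and PPP1R12B, a myosin phosphatase subunit (circ_0008317). Genes of signalling were IGF1R, the receptor of insulin-like growth factor (circ_0009919), and DUSP10, a MAP kinase phosphatase (circ_0007890). Secreted or matrix proteins were CEMIP, a factor of hyaluronan breakdown (circ_0009677), ADAMTS16, a metalloproteinase (circ_0009538), and JCHAIN, the joining chain of antibodies (circ_0003518). DENND4A, an activator of Rab GTPases (circ_0005716), ARHGAP32, a GTPase activating protein (circ_0011691), and PCNX1 (circ_0005249) completed the set. This grouping only orders the description and was not tested.

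The 4 circRNAs whose back-splice sequence itself was paired were those of KLHL5, ITCH, PPP1R12B and ARHGAP32. In the other 19, the list gave the pair for the whole spliced sequence only. The share of spliced pairs that were repeated on the back-splice sequence was 17.4% for let-7 5p and 14.7% over all 13005 spliced pairs. At PPP1R12B the spliced sequence was only 131 nt, the shortest of the 23, and the exon given by the authors did not reach both ends of the circRNA's span; the same held for DENND4A.

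Since the list gives names without positions, the exons of paired and unpaired circRNAs of the same gene were compared. The 4 paired circRNAs of EHMT1 lie on chromosome 11 and end at the same position, 105670084. Each held the exon from 105669904 to 105670084, of 181 nt, and it was the only exon common to all 4. The unpaired circ_0005882 of EHMT1 was a single exon of 146 nt and held none of the exons of these 4. At CEMIP on chromosome 21, the paired circ_0009677 (26404025 to 26405703) and the unpaired circ_0009678 start with the same exon of 181 nt. They differ in the exon that follows, which in circ_0009677 runs from 26405488 to 26405703 (216 nt) and is in none of the 6 unpaired circRNAs of CEMIP. The paired circRNA of ATAD2B, on chromosome 11, likewise had 1 exon that its 2 unpaired neighbours lacked, from 74869925 to 74870110 (186 nt). At ARHGAP32, on chromosome 29, the exon absent from the unpaired circ_0011692 ran from 31734666 to 31734752 (87 nt) and adjoined the back-splice, and this was also a circRNA whose back-splice sequence was paired. At EHMT1 the 4 paired circRNAs thus shared 1 exon, but the unpaired one lacked all of their exons and does not single it out. CEMIP, ATAD2B and ARHGAP32 had only 1 paired circRNA each, and circRNAs of different sequence must differ in an exon or an exon join. In these genes the comparison therefore does not locate the predicted match. In the other 5 host genes with an unpaired circRNA (KLHL5, PCNX1, DENND4A, PPP1R12B and IGF1R) paired and unpaired circRNAs had no exon in common, as at EHMT1. The genome build is not given in the sources used here, and positions are those of the deposited files.

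**Figure D1:**
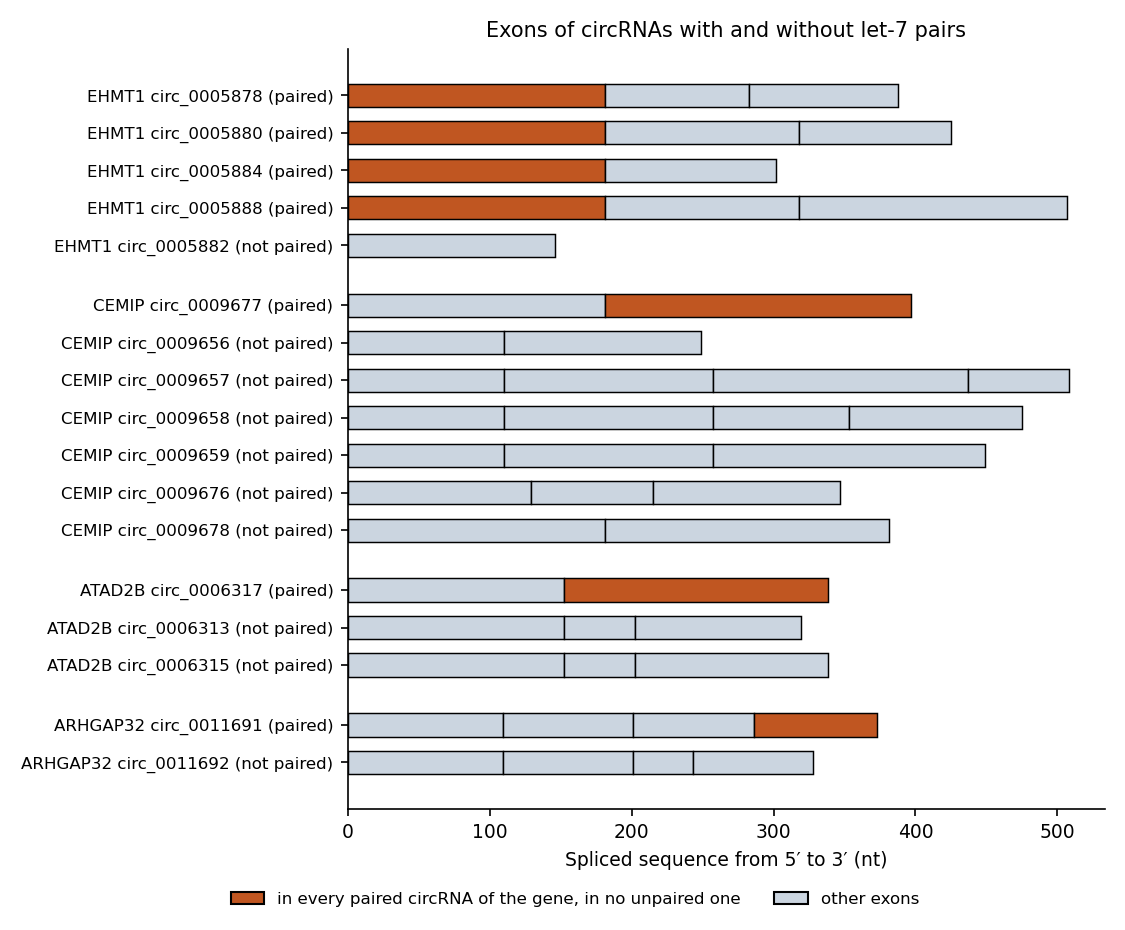
Exons of the circRNAs of EHMT1, CEMIP, ATAD2B and ARHGAP32 along the spliced sequence from 5′ to 3′, in nt, with each bar 1 circRNA and each block 1 exon to scale. Orange blocks are exons in every let-7 paired circRNA of the gene and in no unpaired one; in EHMT1 it is the same 181 nt exon in 4 circRNAs.

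A longer sequence leaves more room for a predicted match, so the length of the 23 circRNAs was compared with that of the others. Their spliced length was 131 to 654 nt with a median of 360 nt, against 319 nt over the 1304 unpaired circRNAs and 327 nt over the 1226 unpaired circRNAs in the same range of length. All circRNAs were ordered by spliced length and divided into 5 classes of nearly equal number, which held 1, 4, 5, 9 and 4 paired circRNAs from shortest to longest. The shortest class (30 to 234 nt) held 1 paired circRNA of 267 and the class of 346 to 402 nt held 9 of 265, or 0.375% and 3.40%. The longest class (403 to 672 nt) held 4 of 264, so the share of paired circRNAs did not grow steadily with length. The paired circRNAs had pairs with a median of 21 miRNAs, against 9 in the unpaired circRNAs of the same length range, but 9 of these are the let-7 5p miRNAs and miR-98-5p that define or duplicate the set. Without them the median was 12, with values from 4 at PPP1R12B to 26 at ATAD2B. The deposited TPM, averaged over the libraries, had a median of 460 in the paired and 455 in the unpaired circRNAs of this range, so the paired circRNAs were neither rare nor abundant as a set.

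**Figure D2:**
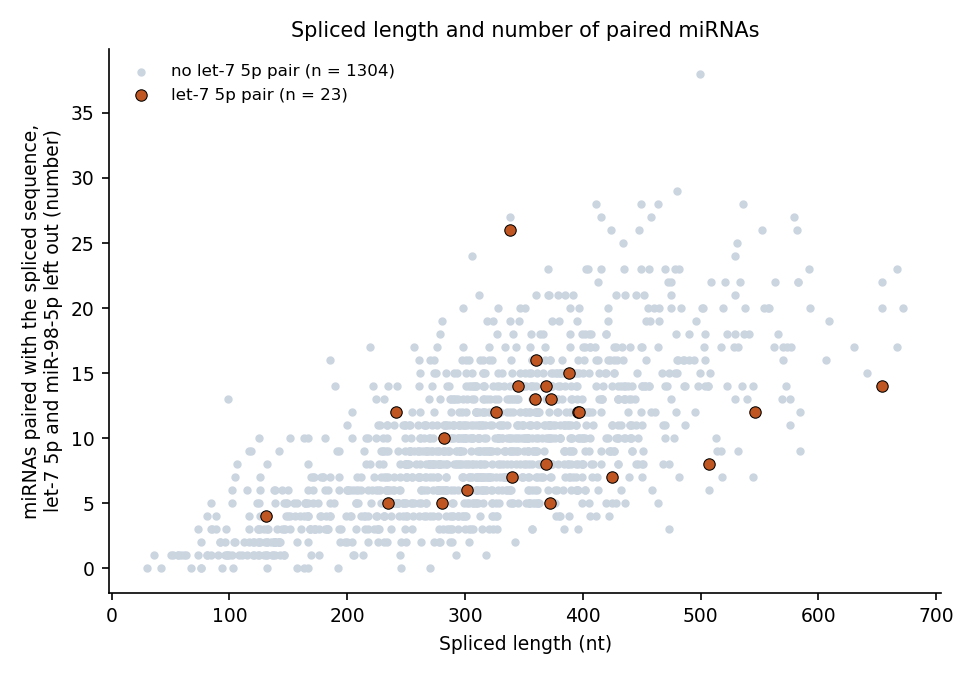
Number of miRNAs paired with the spliced sequence, let-7 5p and miR-98-5p left out, against spliced length in nt. Each point is a circRNA; the 23 with a let-7 5p pair (orange) lie within the cloud of the 1304 others (grey) and have a median of 12 miRNAs.

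Apart from the let-7 family, the miRNA most often shared was miR-1839. It was paired with 9 of the 23 circRNAs, those of MARCH7, SMC5, PCNX1, RNF111, DENND4A, ATAD2B, ITCH, ADAMTS16 and ARHGAP32. In the whole list it was paired with 31 circRNAs, 2.34% of all, and 29.0% of these were let-7 paired. The next was miR-320-3p, with 5 of the 23 circRNAs, and no other miRNA had more than 4. The mature sequences were not among the data used here, so whether miR-1839 and let-7 match the same bases was not tested.

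The paired circRNAs spanned the range of abundance. CEMIP circ_0009677 was the eighth most abundant of all 1327 circRNAs and had 1175 junction reads over the 10 libraries. It was followed by EHMT1 circ_0005888 with 300 reads, IGF1R circ_0009919 with 272, SMCHD1 circ_0010536 with 223 and EHMT1 circ_0005878 with 116. The other 18 had 21 (RNF111) to 95 (RNF4) reads in all, and 12 of the 18 had a 0 in at least 1 library.

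**Figure D3:**
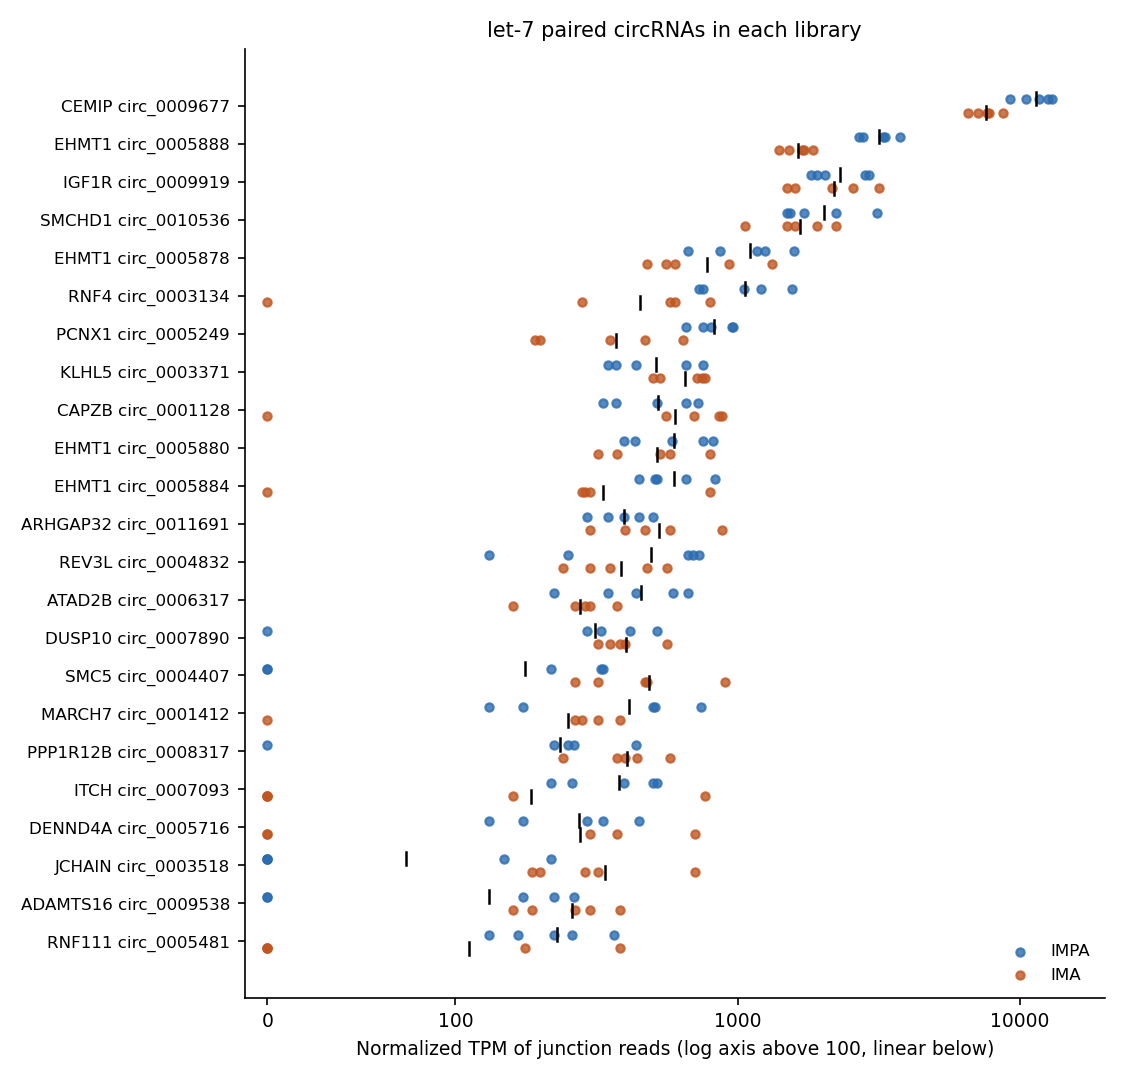
Normalized TPM of junction reads (counts per 1000000 with TMM factors, log axis above 100 and linear below) of the 23 let-7 paired circRNAs. Each point is a library, IMPA in blue and IMA in orange, and black lines are means of 5 libraries. Only CEMIP circ_0009677, EHMT1 circ_0005888 and PCNX1 circ_0005249 have groups that do not overlap, against 4.56% of all circRNAs tested.

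The first comparison asked whether junction reads of these circRNAs differed between IMA and IMPA. With edgeR's quasi-likelihood test over 1294 circRNAs and a Benjamini-Hochberg adjusted p under 0.01, 2 of the 23 fell in IMA and none rose. Over all circRNAs tested, 12 passed, a background of 0.927%, with 6 higher and 6 lower in IMA (0.464% in each direction). The split was 6 higher and 2 lower without TMM and 8 higher and 1 lower with uniquely mapped reads as library sizes, which moved the median log2 fold change of all circRNAs tested from -0.07 to 0.13. Both lower circRNAs, of CEMIP and EHMT1, are abundant, and smaller changes of the scarcer ones are hard to detect at this depth. Counts of this depth were simulated with an assumed spread between libraries, the same for all circRNAs and not estimated from these data. On them the test called 24.5% of circRNAs changed by 1 on the log2 scale and 66.7% of those changed by 2. The median log2 fold change of the 23 was -0.24, against -0.07 over all circRNAs tested, and 14 of 23 (60.9%) were below 0 against 55.6%. The median of the paired circRNAs was -0.17 without TMM and -0.00412 with uniquely mapped reads as library sizes, and it lay between -0.13 (without IMA3) and -0.29 (without IMPA4) with each library left out. Only 5 paired circRNAs had a mean count of at least 10, and their median of -0.42 is the value of EHMT1 circ_0005878. Before adjustment, 6 of the 23 had a p under 0.05, against 13.3% of all circRNAs tested. In bulk RNA, fewer cells of a type and less RNA per cell cannot be told apart.

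CEMIP circ_0009677 had 178, 121, 157, 111 and 191 junction reads in IMPA1 to IMPA5 and 74, 76, 109, 78 and 80 in IMA1 to IMA5. After normalization every IMA library lay below every IMPA library, with the highest IMA library (IMA3) at 8716 TPM and the lowest IMPA library (IMPA4) at 9264. Mean normalized TPM fell from 11396 ± 1534 to 7565 ± 817 (SD over 5 libraries each), with a log2 fold change of -0.58 (SE 0.12, edgeR adjusted p = 0.0028). The call was lost without IMPA1, IMPA5, IMA1, IMA2 or IMA4 (adjusted p up to 0.0223), without TMM (log2 fold change -0.51, adjusted p = 0.0134) and with uniquely mapped reads as library sizes (log2 fold change -0.33, adjusted p = 0.19). With a library left out the log2 fold change stayed between -0.64 and -0.52. CEMIP is known in fibroblasts for the breakdown of hyaluronan in the matrix.

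EHMT1 circ_0005888 (chromosome 11, 105666855 to 105670084) had 38, 31, 44, 40 and 57 junction reads in IMPA1 to IMPA5. In IMA1 to IMA5 it had 21, 18, 19, 14 and 18, and the groups did not overlap. Mean normalized TPM fell from 3164 ± 439 to 1636 ± 178 (SD over 5 libraries each), with a log2 fold change of -0.89 (SE 0.18, edgeR adjusted p = 0.00138). The adjusted p rose to 0.0104 without IMA4 (log2 fold change -0.84) and to 0.0384 with uniquely mapped reads as library sizes (log2 fold change -0.65).

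The other 3 paired circRNAs of EHMT1 share the end and the 181 nt exon of circ_0005888 but did not pass the test. For circ_0005878, IMPA1 to IMPA5 had 16, 10, 9, 19 and 19 reads and IMA1 to IMA5 had 15, 10, 7, 6 and 5, a log2 fold change of -0.43 (SE 0.32, edgeR adjusted p = 0.509). For circ_0005880, the counts were 8, 5, 11, 9 and 6 in IMPA and 6, 4, 4, 8 and 6 in IMA, a log2 fold change of -0.16 (SE 0.41, edgeR adjusted p = 0.856). Both overlapped between the groups, and circ_0005884, with 6 to 10 reads per IMPA library and 0 to 10 per IMA library, had a log2 fold change of -0.58 (SE 0.50, edgeR adjusted p = 0.51). The unpaired circ_0005882 of EHMT1 had 14 to 24 reads per IMPA library and 4 to 13 per IMA library, with a log2 fold change of -0.78 (SE 0.28, edgeR adjusted p = 0.112). Circles of 1 gene are not independent of each other, and a difference between them was not tested.

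IGF1R circ_0009919 is a single exon of 546 nt (chromosome 21, 7090981 to 7091526) from a gene that let-7 is known to target. It had 25, 22, 38, 35 and 31 reads in IMPA1 to IMPA5 and 29, 17, 27, 15 and 33 in IMA1 to IMA5. The groups overlapped throughout, with means of 2303 ± 526 normalized TPM for IMPA and 2194 ± 692 for IMA (SD over 5 libraries each) and a log2 fold change of -0.06 (SE 0.21, edgeR adjusted p = 0.919). The sign of this value turned without TMM (0.01) and with uniquely mapped reads as library sizes (0.18). SMCHD1 circ_0010536 (chromosome 24, 37322091 to 37326775) had 21, 36, 30, 18 and 26 reads in IMPA and 12, 16, 28, 16 and 20 in IMA, with overlapping groups and a log2 fold change of -0.24 (SE 0.23, edgeR adjusted p = 0.668). It was at -0.059 without IMPA2, at -0.11 without IMA1 and at -0.00412 with uniquely mapped reads as library sizes.

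Among the circRNAs paired on the back-splice sequence, KLHL5 circ_0003371 had 6, 4, 5, 9 and 10 reads in IMPA and 6, 8, 9, 5 and 8 in IMA. ARHGAP32 circ_0011691 had 4, 4, 6, 6 and 6 reads in IMPA and 10, 5, 5, 3 and 6 in IMA. PPP1R12B circ_0008317 had 6, 0, 3, 3 and 4 reads in IMPA and 5, 4, 3, 4 and 6 in IMA. Their log2 fold changes of 0.27 (SE 0.38), 0.30 (SE 0.45) and 0.49 (SE 0.59) did not pass the test (edgeR adjusted p = 0.733, 0.727 and 0.626). ITCH circ_0007093, from a ubiquitin ligase of the HECT class, had 3, 3, 7, 6 and 6 reads in IMPA and 0, 0, 2, 0 and 8 in IMA. Its highest and its lowest libraries were both in IMA, and its log2 fold change was -0.64 (SE 0.72, edgeR adjusted p = 0.554). Without IMA5 it was -1.39 (edgeR adjusted p = 0.122), and over the other alternatives it ranged from -1.85 with limma voom to -0.45 without IMA1.

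Of the remaining circRNAs, 4 had an unadjusted p under 0.05 that was lost on adjustment. RNF4 circ_0003134 had 10, 14, 21, 9 and 16 reads in IMPA and 0, 3, 10, 6 and 6 in IMA, a log2 fold change of -0.99 (SE 0.40, edgeR adjusted p = 0.143). PCNX1 circ_0005249 had 11, 11, 13, 9 and 10 reads in IMPA and 4, 5, 8, 2 and 2 in IMA, and after normalization all IMA libraries lay below all IMPA libraries (log2 fold change -0.86, SE 0.39, edgeR adjusted p = 0.175). Such separation in either direction occurred in 4.56% of the circRNAs tested. JCHAIN circ_0003518 and SMC5 circ_0004407 pointed the other way, with 0 to 3 and 0 to 5 reads per IMPA library and 2 to 8 and 3 to 9 per IMA library (edgeR adjusted p = 0.225 and 0.336). JCHAIN is a gene of antibody-producing cells, and which cells gave its circRNA was not tested. The other 8 circRNAs (CAPZB, MARCH7, REV3L, RNF111, DENND4A, ATAD2B, DUSP10 and ADAMTS16) had log2 fold changes between -0.52 and 0.49 and edgeR adjusted p-values of 0.576 or more.

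The 20 host genes also gave 15 circRNAs without a let-7 5p pair, of which 14 could be tested. None had an adjusted p under 0.05, against 1.47% of all circRNAs tested, and 10 of 14 had a log2 fold change below 0, against 55.6% of all circRNAs tested. The nearest to the threshold was PCNX1 circ_0005258, with 12 to 21 reads per IMPA library and 3 to 11 per IMA library (log2 fold change -0.93, SE 0.30, edgeR adjusted p = 0.0581). At CEMIP, all 5 unpaired circRNAs that were tested had values below 0, the lowest that of circ_0009678, which shares its first exon with the paired circRNA (-1.27, SE 0.58, edgeR adjusted p = 0.104). A difference between paired and unpaired circRNAs of these genes was not tested.

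Taken as a pool, the 23 circRNAs held 2.71%, 2.57%, 2.77%, 2.61% and 2.79% of all junction reads in IMPA1 to IMPA5. In IMA1 to IMA5 they held 2.06%, 2.0%, 2.17%, 2.02% and 2.36%. Every IMA library was below every IMPA library, with means of 2.69% ± 0.0975 and 2.12% ± 0.151 (SD over 5 libraries each), and no test was made on this sum. CEMIP circ_0009677 held 39.6% of the pooled reads and the 4 circRNAs of EHMT1 18.2%. Without CEMIP the means were 1.58% and 1.35%, and IMA5 (1.58%) lay above IMPA1, IMPA2 and IMPA5. Without CEMIP and EHMT1 the 18 remaining circRNAs held 1.05% ± 0.0913 in IMPA and 1.01% ± 0.157 in IMA (SD over 5 libraries each), and the groups overlapped. Over the same libraries the mean share of CEMIP went from 1.11% to 0.777% and that of EHMT1 from 0.531% to 0.336%. The share is relative to all circRNA reads and says nothing of the amount of circRNA per cell.

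**Figure D4:**
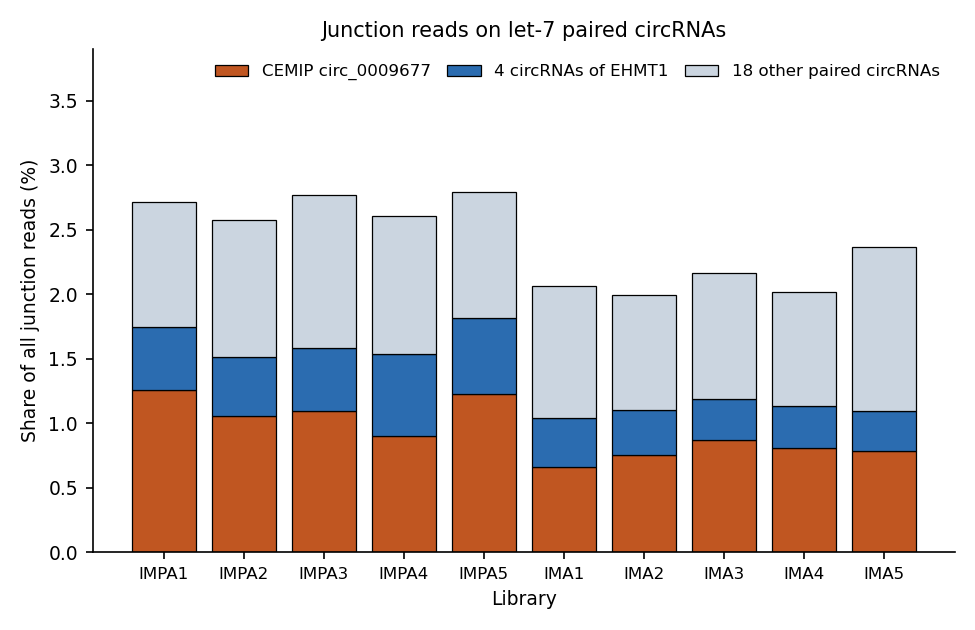
Share of all junction reads of a library, in percent, on CEMIP circ_0009677 (orange), the 4 circRNAs of EHMT1 (blue) and the 18 other let-7 paired circRNAs (grey). Each bar is 1 library; the whole bars reach 2.57% to 2.79% in IMPA and 2.0% to 2.36% in IMA.

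A further comparison took the non-junction reads, which cross the same ends without a back-splice and were taken as linear RNA. Reads from a larger circle that spans an end could not be told apart from these. Non-junction reads were listed only for libraries in which the circRNA was called. Thus 11 of the 23 circRNAs had a value in every library and could be tested. Of the 690 circRNAs tested, 150 passed an adjusted p under 0.01, a background of 21.7%, with 80 higher (11.6%) and 70 lower (10.1%). Without TMM the split was 48 higher and 106 lower. Among the 11, 4 were lower and 1 was higher in IMA, and 3 of the 4 lower ones were overlapping circRNAs of EHMT1.

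At CEMIP circ_0009677 the non-junction reads were 1386, 1196, 1522, 1321 and 2068 in IMPA1 to IMPA5 and 423, 415, 449, 407 and 437 in IMA1 to IMA5. The groups lay far apart, and the log2 fold change was -1.22 (SE 0.07, edgeR adjusted p = 1.21e-14). At EHMT1 circ_0005888 they were 380, 295, 386, 327 and 437 in IMPA and 200, 158, 216, 194 and 180 in IMA, a log2 fold change of -0.36 (SE 0.08, edgeR adjusted p = 0.000395). The values at the same end counted for circ_0005878 and circ_0005880 were -0.33 (SE 0.09, edgeR adjusted p = 0.00758) and -0.34 (SE 0.09, edgeR adjusted p = 0.00404). With 1 library left out in turn, circ_0005878 passed 0.01 in 4 of 10 fits and circ_0005880 in 6 of 10.

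At SMCHD1 circ_0010536 the non-junction reads went up relative to the other sites. They were 152, 132, 127, 158 and 168 in IMPA, with 177795 to 244354 non-junction reads per library, and 129, 117, 129, 109 and 135 in IMA, with 128138 to 173047 per library. Relative to these totals the log2 fold change was 0.32 (SE 0.10, edgeR adjusted p = 0.00925). With each library left out, this call held in 2 of 10 fits, and it was lost without TMM (adjusted p = 0.0334). The remaining values were -0.17 at IGF1R, -0.12 at KLHL5, -0.03 at ATAD2B, 0.04 at REV3L, 0.07 at PCNX1 and 0.27 at ARHGAP32, and none passed.

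For circRNAs with missing entries, limma was run on the entries present, with at least 3 in each group. This took in 20 of the 23 circRNAs and 1183 in all, of which 19.5% passed 0.01, and left out JCHAIN, RNF111 and ITCH. It added EHMT1 circ_0005884, with 240, 242, 279, 226 and 309 non-junction reads in IMPA1 to IMPA5 and 108, 150, 121 and 159 in IMA2 to IMA5, a log2 fold change of -0.37 (SE 0.10, limma adjusted p = 0.00548). DENND4A circ_0005716 had 137, 121, 119, 144 and 136 in IMPA1 to IMPA5 and 116, 120 and 91 in IMA1, IMA2 and IMA4. Relative to the library totals it was at 0.38 (SE 0.12, limma adjusted p = 0.015), which did not pass 0.01, and the other circRNAs it added were at -0.14 to 0.20.

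The last comparison asked whether junction and non-junction reads changed by different amounts, as the interaction of kind of read and group in edgeR. Of 690 circRNAs, 5 passed an adjusted p under 0.01 (0.725%), with 4 higher (0.58%) and 1 lower (0.145%), and among the 11 paired circRNAs with complete values 1 passed. It was CEMIP circ_0009677, whose junction reads fell less than the non-junction reads at the same ends, by a difference of 0.65 on the log2 scale (95% interval 0.38 to 0.92, edgeR adjusted p = 0.000346). The circular share lay between 14.4% and 20.4% in IMPA and between 25.9% and 32.7% in IMA, and the groups did not overlap. For this share each junction read was counted 2 times and set over that number plus the non-junction reads, since a circle has 1 back-splice where linear RNA crosses 2 ends. Without IMA3 the adjusted p of the interaction was 0.0171, past 0.05 but not 0.01.

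In the other circRNAs the interaction was not past the threshold. PCNX1 circ_0005249 had a difference of -1.12 (95% interval -1.86 to -0.38, edgeR adjusted p = 0.0728), with a circular share of 14.2% ± 3.19 in IMPA and 7.86% ± 3.63 in IMA (SD over 5 libraries each). EHMT1 circ_0005888 was at -0.56 (95% interval -0.99 to -0.13, edgeR adjusted p = 0.137) and SMCHD1 circ_0010536 at -0.54 (SE 0.23, edgeR adjusted p = 0.182). The highest circular share of the 11 was that of IGF1R circ_0009919, with 39.8% ± 6.96 in IMPA and 46.1% ± 9.88 in IMA (SD over 5 libraries each), and its interaction of 0.12 had a 95% interval of -0.33 to 0.58. Averaged over all libraries, the 11 had a median circular share of 17.3%, from 5.82% to 42.9%, against 11.8% over the 690.

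**Figure D5:**
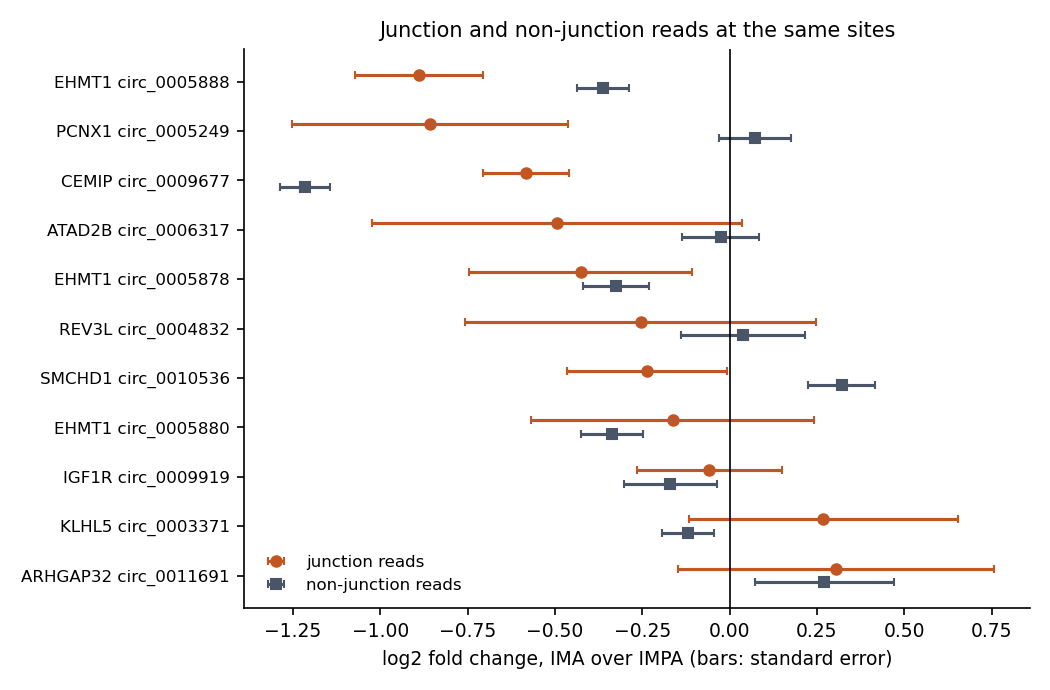
log2 fold change of IMA over IMPA for junction reads (orange circles) and non-junction reads (grey squares) of the 11 let-7 paired circRNAs with both in every library, with SE as bars. At CEMIP circ_0009677 the non-junction value (-1.22) is lower than the junction value (-0.58), and at EHMT1 circ_0005888 the order is opposite (-0.36 and -0.89).

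Genes of the let-7 pathway were looked up among the host genes, without a comparison with other genes. Of 25 genes that make, trim or load miRNAs, 2 had 1 circRNA each: AGO2, the slicing Argonaute (circ_0007493, 74 reads in all), and ZCCHC6, a terminal uridylyltransferase (circ_0004572, 38 reads). Neither was let-7 paired and neither passed the test, with log2 fold changes of -0.17 (SE 0.38) and -0.12 (SE 0.60). Of 28 well known let-7 target genes, 2 had a circRNA. They were IGF1R, with circ_0009919 described above and the unpaired circ_0009920 (-0.03, SE 0.67), and INSR, the insulin receptor, whose abundant circ_0004143 (663 reads) was unpaired and had a log2 fold change of 0.11 (SE 0.13, edgeR adjusted p = 0.735). Of these 3 circRNAs 1 was let-7 paired, against 1.73% of all circRNAs, and the difference was not tested. These lists count circles only, and the genes' messenger RNA was not measured beyond the ends of circles.

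The cell labels were checked against marker genes that had circRNAs. Of 17 adipocyte markers, INSR and PLIN2, a lipid droplet protein, had circRNAs, and PPARG, FABP4 and ADIPOQ had none. The summed level was 5422 ± 533 TPM in IMPA and 6681 ± 481 in IMA (SD over 5 libraries each), and 0 of 2 tested circRNAs passed; PLIN2 circ_0004263 was at 1.15 (SE 0.47, edgeR adjusted p = 0.0759). Of 16 preadipocyte and fibroblast markers, COL5A1, COL5A2 and FBN1 had circRNAs, with 1809 ± 432 TPM in IMPA and 2451 ± 168 in IMA (SD over 5 libraries each), and 1 of 4 rose (COL5A1 circ_0005870), against 0.464% of all circRNAs tested. Of 21 striated muscle markers, 5 had 13 circRNAs, of which 4 rose and none fell, against 0.464% in each direction over all circRNAs tested. Every host gene among these also had a raised circRNA in the paper's own comparison of the same libraries. The marker lists were chosen with earlier results of these data known. The rise and the summed level of this list are therefore not independent evidence of cell makeup. The same holds for COL5A1 in the fibroblast list. LMO7 alone gave 9 of the 13 circRNAs and 2 of the 4 that rose. The others that rose were MYBPC1 circ_0002854 and MYPN circ_0011446. Reads of the first were 0 in each IMPA library and 5 to 10 in IMA. Its log2 fold change was 2.31 (SE 0.96, edgeR adjusted p = 0.000192). The second had 2 to 3 reads per IMPA library and 7 to 14 per IMA library. Its log2 fold change was 1.74 (SE 0.45, edgeR adjusted p = 0.000977). STAC (1.42) and FHOD3 (1.41) did not pass, and LMO7 circ_0006504 (-0.31) and circ_0006507 (-0.30) were below 0. The sum over the 13 went from 5003 ± 598 TPM in IMPA to 12176 ± 1001 in IMA (SD over 5 libraries each), and the most abundant was LMO7 circ_0006499, from a gene that is also expressed outside muscle, while TTN, NEB and the myosin heavy chain genes of the list (MYH1, MYH2, MYH3, MYH7 and MYH8) had none. None of 6 endothelial markers and none of 5 immune markers (PTPRC, CD68, CSF1R, CD163 and ITGAM) had a circRNA. A gene without a called circRNA may still be expressed. No let-7 paired circRNA was in any of these marker lists, and the part of cell makeup in the values of the 23 was not tested.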

How the data were processed

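The deposited junction counts are back-splice reads per circRNA and library. The authors called circRNAs separately with find_circ (read count of at least 2) and CIRI2 and kept those found by both. The paper also names HISAT2, without stating that these calls used its mappings. The deposited TPM equals the count per 1000000 junction reads, a CPM without a length term (largest difference 4.99e-06). The other deposited values are spliced length, non-junction reads and the list of miRNA pairs, given as names alone. Genome build and tool versions are not given in the sources used here, and 10 further sample names without counts were not used.

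Junction counts were tested with edgeR 4.0.16 (R 4.3.3; TMM, glmQLFit and glmQLFTest, prior count of 2) over the 1294 circRNAs above 0 in at least 5 of the 10 libraries, with Benjamini-Hochberg adjustment over all of them at 0.01. Fold changes are shrunk by the prior count; the SE is that of the coefficient without it. Non-junction reads and the interaction with kind of read, with a term per library, were tested over the 690 circRNAs with an entry in every library. This departs from the planned filter of 5 libraries, since entries exist only where a circRNA was called. Normalized TPM uses TMM factors. The scripts were tested on data simulated with an assumed spread between libraries. Non-junction changes of 1 on the log2 scale were called in 98% and interactions in 35%. No 2 libraries were alike within sampling noise (chi-square per degree of freedom at least 1.18). Counting errors assume independent reads, which carry no molecular identifiers.

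Values in every library are given for circRNAs with an adjusted p under 0.05 in any of the 3 edgeR tests, the 5 most abundant, and those paired on the back-splice sequence; RNF4 and PCNX1 were added after their values were seen. Lists comprised miRNA machinery, let-7 targets and markers of adipocytes, preadipocytes and fibroblasts, striated muscle, endothelium and immune cells. The 23 circRNAs and all lists were chosen with earlier results of these data known. Alternatives were DESeq2 1.42.0, limma 3.58.1 (voom), other scalings and count filters, other definitions of a pair, leaving out each library, and the replicate number as a block. Replicate numbers were not taken as pairs, since residuals of libraries with the same number correlated at -0.05 to 0.01.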

Additional observations from a re-analysis of the deposited data

Results flagged for a closer look

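Within a group of 5 libraries, a library was taken as far from the others where its gap to the nearest value, over the whole range of the group, exceeded 0.71. Of 44 groups of 5 values looked at, 3 passed, and chance gives about 1 in 20. Normalized TPM of ITCH circ_0007093 was 766 in IMA5, against 160 in the next highest IMA library and 0 in the other 3. Normalized non-junction reads of KLHL5 circ_0003371 were 1454 per 1000000 in IMA4, with the next IMA library at 1285. Normalized non-junction reads of ARHGAP32 circ_0011691 were 86.8 per 1000000 in IMPA3, with the next IMPA library at 131.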

How the results depend on the processing

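The calls on paired circRNAs depended on scaling and on single libraries. Lower junction calls went from 2 to 1 without TMM and to 0 with uniquely mapped reads as library sizes, and to 0 to 2 with each library left out (0 without IMA4, 1 without IMPA1, IMPA5, IMA1 or IMA2). Over all circRNAs they went from 6 to 2 without TMM, to 1 with uniquely mapped reads, to 10 (with 3 higher) at a mean count of at least 10, and to 1 to 6 with a library left out. The higher non-junction call (SMCHD1) was 0 without TMM, 0 with uniquely mapped reads and 0 to 1 with a library left out, and the 4 lower ones were 2 to 4. Over all circRNAs, non-junction calls were 48 higher and 106 lower without TMM, 49 higher with uniquely mapped reads and 113 lower with missing entries left missing. The 1 circRNA with a lower interaction was 0 without TMM, 0 at a mean of at least 10 in both kinds of read and 0 to 2 with a library left out; the higher interaction of CEMIP was 0 to 1, lost without IMA3. The cause was not tested. The pooled share was 0.148% in IMPA and 0.182% in IMA over pairs on the back-splice sequence only, and 1.58% and 1.35% without CEMIP. The percentage of circRNAs that were paired was 1.84% in the whole range of length and 2.78% between the lower and upper quartile of the paired lengths.

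With the replicate number as a block, 6 circRNAs were higher and 5 lower in junction reads, 93 and 80 in non-junction reads, and the calls on paired circRNAs were 2 lower in junction reads and 4 lower and 1 higher in non-junction reads, as without it. The numbers did not pair the libraries.

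Signs turned only for values that did not pass the test. Junction reads of CAPZB were at -0.27 with limma voom. DENND4A was at -0.000466 with the default prior count, -0.64 with limma voom and -0.13 with the replicate block, and at -0.41 to 0.24 with each library left out. EHMT1 circ_0005880 was at 0.0342 with uniquely mapped reads. IGF1R was at 0.0145 without TMM, 0.18 with uniquely mapped reads and -0.20 to 0.0469 with each library left out. Non-junction reads of REV3L were at -0.0239 without TMM, -0.0143 with uniquely mapped reads and -0.11 to 0.13 with each library left out, and those of ATAD2B at -0.092 to 0.0225. With each library left out, the interaction ranged from -0.37 to 0.00391 for EHMT1 circ_0005878, from -0.0206 to 0.30 for circ_0005880, from -0.036 to 0.31 for IGF1R and from -0.0809 to 0.43 for ARHGAP32. Among the other values of single circRNAs, 653 kept their direction and their side of the threshold and 30 lost the call.

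Over all circRNAs, 68.8% of the counts above 0 were under 10. On counts simulated with the assumed spread, a change of 1 on the log2 scale was called in 24.5% of circRNAs and a change of 2 in 66.7%. The limma fit on missing entries, the share without CEMIP and the default prior count were chosen after the data were seen.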
